A study of Mus musculus with 8 samples.

Results

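The genes described here are the 56 protein-coding genes of the mouse RefSeq annotation (mm10, GRCm38.p6) whose symbol begins with Eif and a number, out of 21887 protein-coding genes. Membership was defined by the symbol, with no measured value. Chd7 and Chd8 are CHD-family remodelers that use ATP to move nucleosomes, and their binding was mapped by chromatin immunoprecipitation and sequencing (ChIP-seq). All 8 libraries came from wild-type mouse cortex and corpus callosum at postnatal day 7, from cells isolated magnetically by the O4 antigen, which marks the oligodendrocyte lineage. The labels call the cells OPC. The groups were Chd7 ChIP with a Cell Signaling antibody (2 libraries), Chd8 ChIP with a Bethyl antibody (1 library), mock ChIP with rabbit IgG (2 libraries) and input chromatin without antibody (3 libraries). No deletion, transgene or treatment was given to any group. Chd8 had a single library, so its values carry no replicate error. Whether libraries came from separate animals was not given in the sources used here.

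Initiation factors bring the small ribosomal subunit, the initiator tRNA and the mRNA together. The eIF4F proteins (the cap-binding eIF4E, the helicase eIF4A and the scaffold eIF4G) recognise the mRNA cap, eIF3 bridges the mRNA and the small subunit, and eIF2 delivers the initiator tRNA. eIF2 needs its exchange factor eIF2B to be recharged with GTP, and kinases that phosphorylate the alpha subunit of eIF2 block that exchange in the integrated stress response. Mutations of human eIF2B genes cause vanishing white matter disease, a disorder of the white matter in which glia are affected. The Eif symbol covers more than initiation factors proper. Of the 56 genes, 13 encode eIF2 alpha kinases, eIF2B subunits or eIF4E-binding proteins, and the other 43 encode factor subunits and their relatives, among them Eif4a3, a core protein of the exon junction complex, and Eif1ad, a nuclear protein with an eIF1A-like domain.

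The files hold peaks without read counts, and depth is unknown. The lists held 5282 and 6292 peaks for Chd7 libraries 1 and 2 and 18415 for Chd8, against 89 and 98 for the mocks and 109486, 178478 and 91628 for the inputs. Every input list was longer than any ChIP list, so input peaks are given beside the results. At the ends of OPC marker genes, Chd8 had a peak at 6 of 7 markers, against 2 of 5 astrocyte, 2 of 5 neuronal, 1 of 5 microglial and 0 of 5 endothelial markers and 41.0% of all protein-coding genes. Input 3 had a peak at 5 of 7 OPC, 3 of 5 astrocyte, 5 of 5 neuronal, 1 of 5 microglial and 2 of 5 endothelial markers. Occupancy is not expression, and these counts do not measure purity. Chd7 library 2 and Chd8 share a mock. Their files hold track names numbered differently from their titles, under which inputs 2 and 3 would change places, and the extraction notes name an O4 antibody where the sample labels name the Chd7 and Chd8 antibodies. The titles and sample labels were followed.

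Promoters of 7 members are printed to show the DNA under the peaks described below. Each runs 200 bases in the direction of transcription, 170 before the RefSeq start site and 30 from it on, and capitals mark exact matches, on either strand, to any of 10 short words that transcription factors are known to bind. Eif1ad (chr19:5366643-5366842, plus strand) had the highest Chd8 fold of the 56 genes, and Eif3f (chr7:108934245-108934444, plus strand) the second highest. Eif2b4 (chr5:31193110-31193309, minus strand) had peaks of both Chd7 libraries and Chd8, Eif4b (chr15:102073603-102073802, plus strand) the highest mean Chd7 fold, and Eif2s1 (chr12:78861902-78862101, plus strand) encodes the phosphorylated alpha subunit of eIF2. Eif2s3x (chrX:94212622-94212821, minus strand) and Eif2s3y (chrY:1010425-1010624, plus strand) are the X- and Y-linked copies of the gamma subunit gene of eIF2, with and without a Chd8 peak.
Eif1ad: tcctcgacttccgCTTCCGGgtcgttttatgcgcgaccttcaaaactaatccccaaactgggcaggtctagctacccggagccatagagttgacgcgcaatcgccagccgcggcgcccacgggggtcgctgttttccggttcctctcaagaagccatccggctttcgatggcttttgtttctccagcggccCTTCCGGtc
Eif3f: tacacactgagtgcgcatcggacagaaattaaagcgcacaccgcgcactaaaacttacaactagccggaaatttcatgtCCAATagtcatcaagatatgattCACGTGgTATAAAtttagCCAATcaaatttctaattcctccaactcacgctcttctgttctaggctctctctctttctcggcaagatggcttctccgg
Eif2b4: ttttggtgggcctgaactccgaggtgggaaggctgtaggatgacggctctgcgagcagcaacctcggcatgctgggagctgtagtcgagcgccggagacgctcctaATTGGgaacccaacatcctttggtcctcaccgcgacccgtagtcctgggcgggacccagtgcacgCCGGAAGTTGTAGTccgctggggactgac
Eif4b: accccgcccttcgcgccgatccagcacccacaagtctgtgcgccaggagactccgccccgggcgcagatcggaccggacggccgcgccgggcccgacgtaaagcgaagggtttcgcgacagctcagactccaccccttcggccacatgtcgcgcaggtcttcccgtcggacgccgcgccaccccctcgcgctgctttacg
Eif2s1: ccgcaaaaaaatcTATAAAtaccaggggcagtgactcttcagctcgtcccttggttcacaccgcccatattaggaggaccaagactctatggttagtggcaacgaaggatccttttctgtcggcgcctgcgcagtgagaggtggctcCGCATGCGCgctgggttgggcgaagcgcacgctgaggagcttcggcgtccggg
Eif2s3x: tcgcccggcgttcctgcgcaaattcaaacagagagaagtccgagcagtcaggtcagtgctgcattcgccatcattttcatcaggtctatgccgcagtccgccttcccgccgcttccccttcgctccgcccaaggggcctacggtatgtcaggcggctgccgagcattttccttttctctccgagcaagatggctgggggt
Eif2s3y: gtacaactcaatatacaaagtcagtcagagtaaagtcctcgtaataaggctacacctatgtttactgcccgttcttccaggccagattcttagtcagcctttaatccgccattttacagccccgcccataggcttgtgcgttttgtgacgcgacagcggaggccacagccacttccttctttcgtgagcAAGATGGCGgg

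In Eif1ad the capitals mark 2 copies of the ETS word. In Eif3f they mark 2 CCAAT words, an E-box and a TATA word next to it. Eif2b4 holds a CCAAT word on the reverse strand and, close to the start, an ETS word that runs directly into a ZNF143 core word on the reverse strand. Eif2s1 holds a TATA word at the upstream edge of the stretch and an NRF1 word near the start. None of the 10 words occurs in the stretches of Eif4b and Eif2s3x, and Eif2s3y holds a YY1 word just after its start.

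A peak of Chd8 lay within 1 kb of either boundary of 45 of the 56 Eif genes (80.4%, 95% Clopper-Pearson interval 67.6 to 89.8%), against 41.0% of all protein-coding genes. Chd7 library 1 had a peak at 15 Eif genes (26.8%, 15.8 to 40.3%), against 10.4% of all genes, and Chd7 library 2 at 22 (39.3%, 26.5 to 53.2%), against 17.0%. Overlapping peaks of both Chd7 libraries, called reproducible regions here, lay at 11 Eif genes (19.6%, 10.2 to 32.4%), against 4.83% of all genes. The mocks had a peak at 0 and 0 Eif genes, for which the interval reaches up to 6.38%, against 0.0183% and 0.0137% of all genes. Together 46 of the 56 genes had a peak of at least 1 ChIP library at an end and 10 had none. Of these 46, 45 had Chd8, which lay at 41.0% of all genes.

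Input peaks were also more common at Eif genes than at all genes. Input 1 had a peak at the ends of 24 Eif genes (42.9%), against 21.9% of all genes, input 2 at 27 (48.2%), against 28.4%, and input 3 at 42 (75.0%, 61.6 to 85.6%), against 45.2%. In all, 50 of the 56 genes had a peak in some input. No input had a peak at 6 of the 56 Eif genes, against 9827 of the 21887 protein-coding genes. When Chd8 peaks that touched a peak of input 3, its input by title, were removed, 11 Eif genes kept a Chd8 peak (19.6%, 10.2 to 32.4%), against 16.7% of all genes, so that the share of Eif genes was then near the background. The 11 were Eif1ax, Eif2ak3, Eif2ak4, Eif2b3, Eif2s2, Eif3b, Eif3f, Eif3g, Eif4e, Eif4ebp1 and Eif5a, and the other 34 lost it. With inputs 2 and 3 exchanged as the track names have it, 31 Eif genes kept one (55.4%), against 29.1% of all genes. With the peaks of any input removed 7 did (12.5%), against 13.1%, namely the 11 without Eif1ax, Eif2b3, Eif2s2 and Eif5a. The part of input signal in the Chd8 count was not tested.

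**Figure D1:**
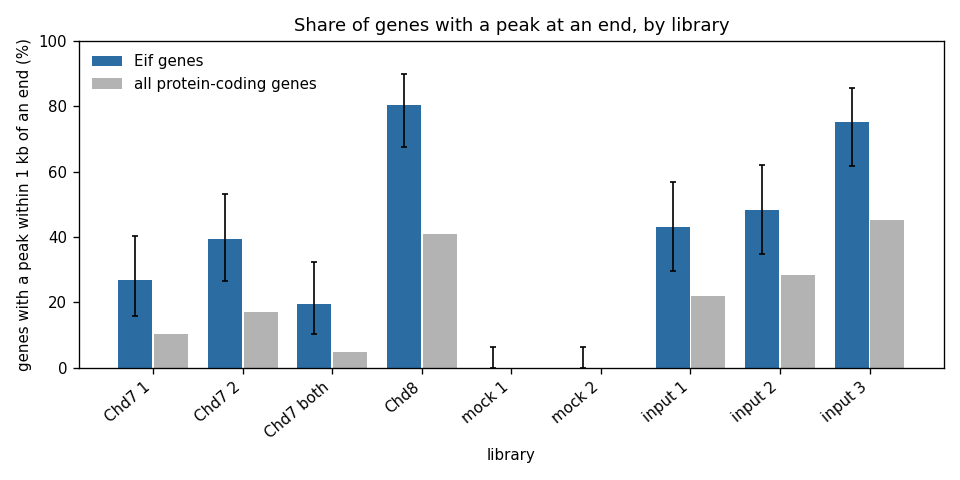
Share of genes (y axis, %) with a peak within 1 kb of a gene end in each library (x axis), for the 56 Eif genes (blue, with 95% Clopper-Pearson intervals) and all 21887 protein-coding genes (grey). The share of Eif genes is higher in every ChIP and input list, 80.4% against 41.0% for Chd8 and 75.0% against 45.2% for input 3, and 0 in both mocks.

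The genes can also be read within one state of the input. Among Eif genes with an input 3 peak at an end, 37 of 42 had a Chd8 peak (88.1%), against 66.3% of all genes in that state. Among those without, 8 of 14 had one (57.1%), against 20.1% of all such genes. Where all 3 inputs had a peak, 14 of 14 Eif genes had Chd8, against 83.0% of all genes, and where none had, 3 of 6 did, against 14.9%. These 3 genes were Eif2ak3, Eif2ak4 and Eif3f. The strata are small, and a peak call hides how much input signal lies below the threshold.

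Of the 11 genes with a reproducible Chd7 region, 10 had a peak in some input, as did 50 of the 56 Eif genes. By input 1, 9 of the 24 Eif genes with an input 1 peak had one (37.5%), against 12.6% of all genes in that state, and 2 of the 32 without (6.25%), against 2.66%. By input 2, 7 of the 27 with a peak had a region (25.9%), against 10.3%, and 4 of the 29 without (13.8%), against 2.65%. With peaks of the matching inputs removed, Chd7 library 1 kept 7 Eif genes (12.5%), against 7.52% of all genes, and Chd7 library 2 kept 11 (19.6%), against 9.66%. Reproducible regions then lay at 3 Eif genes, Eif1, Eif2ak4 and Eif5b (5.36%), against 1.75%. With peaks of any input removed, Chd7 library 1 kept 4 genes, against 3.15% of all genes, Chd7 library 2 kept 3, against 3.18%, and the reproducible region of Eif2ak4 alone was left among the 56, against 0.539%.

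**Figure D2:**
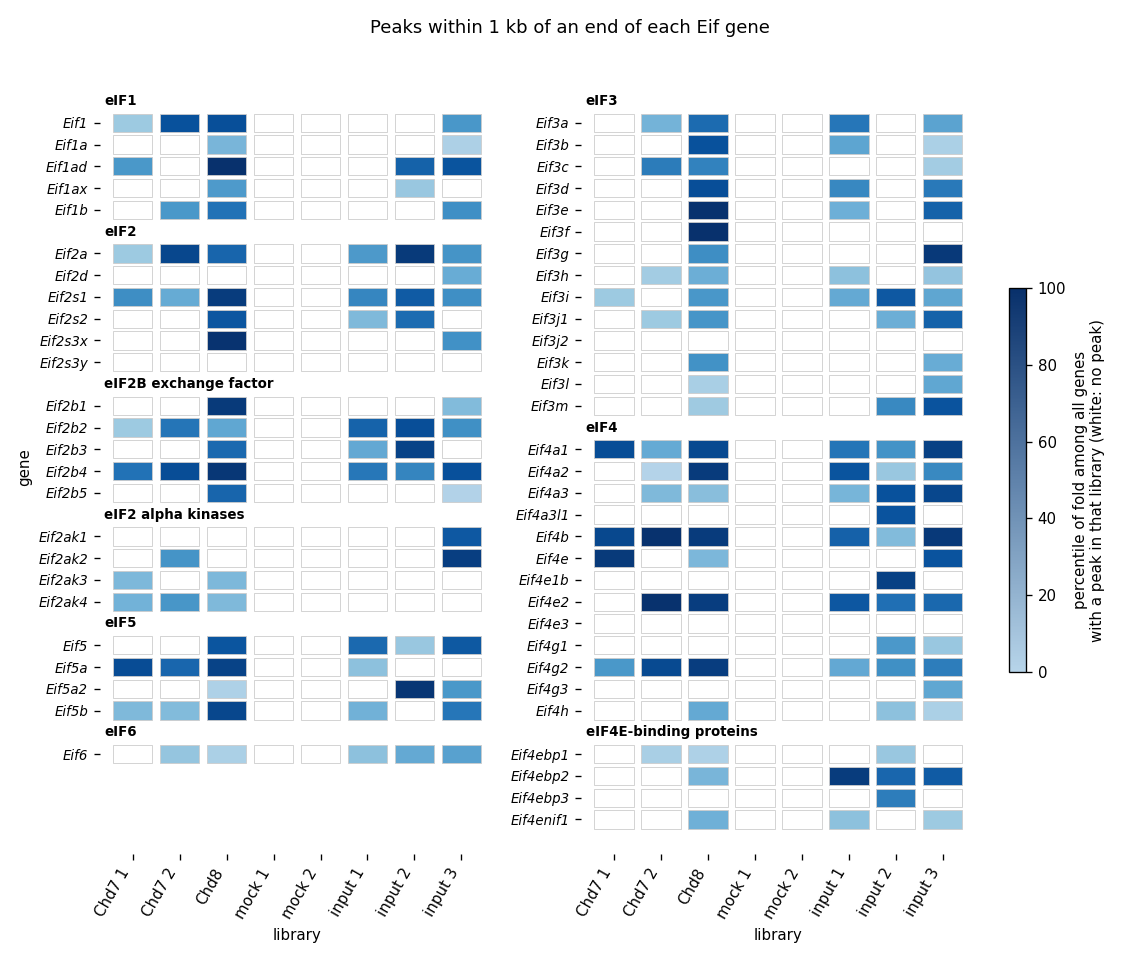
Peaks within 1 kb of an end of each of the 56 Eif genes (rows, grouped by role) in the 8 libraries (columns), with the colour giving the percentile of the gene's highest fold among all genes with a peak in that library and white meaning no peak. The Chd8 column is filled for 45 genes and the mock columns for 0. Both Chd7 columns are filled for no eIF3 gene, against 5.45% of all protein-coding genes.

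By role the counts were uneven. The eIF3 genes encode the multisubunit complex that binds the small ribosomal subunit. Chd8 had a peak at 13 of 14 of them (92.9%, 66.1 to 99.8%), against 41.0% of all genes, with a median fold of 4.81 over the caller's local background (range 3.89 to 9.60). At a −log10 q of at least 5 Chd8 was at 4 of them, against 8.28% of all genes, and at a fold of at least 5 at 5 of them, against 17.8%. A reproducible Chd7 region lay at 0 of 14, an interval that reaches 23.2% and so includes the 4.83% of all genes. Of the other 42 Eif genes, 11 had one. The difference between eIF3 and the rest was not tested. Single Chd7 libraries had a peak at 5 of the 14 eIF3 genes. At least 1 Chd7 library had a peak at 4805 of the 21887 protein-coding genes. The 5 were Eif3i in library 1 (fold 4.15) and Eif3a, Eif3c, Eif3h and Eif3j1 in library 2 (folds 3.20, 3.46, 3.10 and 3.12). Input 3 had a peak at 12 of the 14, and 3 of the 14, Eif3b, Eif3f and Eif3g, kept Chd8 with input 3 peaks removed (21.4%, against 16.7% of all genes). With inputs 2 and 3 exchanged 12 of the 14 kept it (85.7%, against 29.1%).

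Eif3f and Eif3e, for subunits that the eIF3 of budding yeast lacks, had folds of 9.60 and 9.39, ranks 88 and 111 among the 8966 genes with a Chd8 peak at an end. The Eif3f peak was 517 bp wide and covered the start, in a gene with no peak of any input or of Chd7 at its ends. Eif3e had peaks of inputs 1 and 3 (3.61 and 3.78) and none of Chd7. The other Chd8 folds in the complex were lower, 6.05 at Eif3d, 5.96 at Eif3b, 4.96 at Eif3c, 5.29 at the scaffold gene Eif3a and from 3.89 to 4.81 at Eif3g, Eif3h, Eif3i, Eif3j1, Eif3k, Eif3l and Eif3m. The exception was Eif3j2, a short copy of the eIF3j gene, whose nearest Chd8 peak lay 37029 bp away and which had no peak in any library. Near-identical copies share reads, and how the authors treated reads with several matches was not given in the sources used here.

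Of the 6 genes grouped as eIF2, apart from the eIF2B and kinase genes, 4 had Chd8 (66.7%, 22.3 to 95.7%). That interval includes the 41.0% of all genes. Both Chd7 libraries and Chd8 had peaks at Eif2s1, the alpha subunit that stress kinases phosphorylate. Its folds were 4.53 and 3.24 for Chd7 libraries 1 and 2 and 7.08 for Chd8. All 3 inputs had a peak there too (3.80, 3.89 and 3.58). At Eif2a, which encodes a separate tRNA-binding protein in spite of its symbol, the Chd7 folds were 4.15 and 3.90 and the Chd8 fold 5.41. The first of these is the lowest fold that any gene had in Chd7 library 1, and Eif1, Eif2b2 and Eif3i had the same. The inputs had 3.71, 4.38 and 3.56 at Eif2a. Eif2s2, the beta subunit, had Chd8 alone among the ChIPs, with a fold of 5.79.

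The copies of the gamma subunit gene differed: Eif2s3x had a Chd8 peak of 1050 bp and fold 8.72 over its start, rank 180, and an input 3 peak of 3.57. Eif2s3y had no peak in any library, the nearest Chd8 peak lying 112460 bp away. The sex of the mice is not in the labels used here, and a Y-linked gene has a copy in males only. Eif2d, another tRNA-delivering protein, had no Chd8 peak within 14437 bp of a boundary and an input 3 peak of 3.47.

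All 5 eIF2B genes had a Chd8 peak (interval 47.8 to 100%), against 41.0% of all genes. Their median fold was 5.42 (range 4.49 to 7.57). Eif2b4, the delta subunit, had folds of 4.70 and 3.81 in Chd7 libraries 1 and 2 and 7.57 for Chd8, rank 391, with peaks of 3.87, 3.61 and 3.90 in the inputs. All 3 ChIP peaks covered the start. Eif2b2, the beta subunit, had 4.15 and 3.50 for Chd7 and 4.49 for Chd8. The inputs had 3.99, 4.02 and 3.58 there, and 4.15 is the lowest fold in Chd7 library 1. Eif2b1, the alpha subunit, had a Chd8 fold of 7.20 with no Chd7 peak at an end, and Eif2b3 and Eif2b5, the gamma and the catalytic epsilon subunits, had Chd8 folds of 5.33 and 5.42. With matching-input peaks removed, 0 of the 5 genes kept a reproducible Chd7 region and Eif2b3 alone kept Chd8. With inputs 2 and 3 exchanged, Eif2b1, Eif2b3 and Eif2b5 kept Chd8.

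Of the 4 eIF2 alpha kinase genes, 2 had Chd8, a share near the 41.0% of all genes, and 0 at a fold or a −log10 q of at least 5. Eif2ak4, the amino acid sensor GCN2, had folds of 4.31 and 3.34 in the Chd7 libraries and 4.25 for Chd8, with no input peak at either end. It is the gene whose Chd7 region was left under every removal of input peaks. Its 2 Chd8 peaks lay on both sides of the gene's first base, and one of them covered the second of its listed starts. Eif2ak3, the endoplasmic reticulum kinase PERK, had 4.28 in Chd7 library 1 and 4.26 for Chd8, also without an input peak. Eif2ak2, the double-stranded RNA sensor PKR, had 3.34 in Chd7 library 2 and no Chd8 within 14663 bp. It was the only Eif gene with a Chd7 peak and no Chd8 peak at an end. Eif2ak1, the haem-regulated kinase, had neither, and an input 3 peak of 3.84.

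In the eIF4 group 8 of 13 genes had Chd8 (61.5%, 31.6 to 86.1%), an interval that includes the 41.0% of all genes. Their median fold was 6.59 (range 4.18 to 7.15). A reproducible Chd7 region lay at 3 of the 13 (23.1%, 5.04 to 53.8%), against 4.83% of all genes. Eif4b, which stimulates the eIF4A helicase, had 5.16 and 4.59 in Chd7 libraries 1 and 2, the highest mean of the 56 genes (4.88), and 7.14 for Chd8. The inputs had 4.00, 3.32 and 4.24 there. Eif4g2, a scaffold relative that lacks the eIF4E site, had 4.47 and 3.86 for Chd7. Its Chd8 peak had a fold of 6.94 and was the widest of the Eif genes, 1866 bp. The inputs had 3.64, 3.56 and 3.65 at its ends. Eif4a1, the main helicase, had 5.06 and 3.24 for Chd7 and 6.24 for Chd8, with input peaks of 3.88, 3.54 and 4.06. Its reproducible Chd7 region was centred 1012 bp inside the gene and did not cover the start, although Chd7 library 1 had a second peak of 4.96 there.

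Chd7 peaks of 1 library were also seen in this group. Eif4e, the cap-binding protein, had the highest fold of any Eif gene in Chd7 library 1 (5.52), centred 870 bp downstream of its first start, with a Chd8 peak of 4.27 in the same place and no Chd7 peak in library 2. Eif4e2, a cap-binding repressor, had 4.61 in library 2, the highest there, and 6.94 for Chd8. The inputs had 4.08, 3.74 and 3.74 at Eif4e2, and both its ChIP peaks were lost with matching-input peaks removed. Eif4a2 and Eif4a3 had 3.06 and 3.18 in library 2, and Chd8 folds of 7.15 and 4.18. All 3 inputs had a peak at an end of each of them. Eif4h, an RNA-binding partner of eIF4A, had Chd8 alone among the ChIPs (4.44), with peaks of 3.28 and 3.31 in inputs 2 and 3. A fold near the lowest in the list, as at Eif4a2, is a call close to the threshold.

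The remaining eIF4 genes had no Chd8 peak at an end. The nearest one lay 3145 bp from a boundary of Eif4g1 and 138437 bp from Eif4a3l1, a copy of the Eif4a3 gene. It lay 17307 bp from Eif4e1b, a germline relative of eIF4E, and 14464 bp from Eif4e3, inside that gene. At Eif4g3 the absence comes from the gene boundary: the promoter table lists its start 1676 bp inside the annotated gene, and there Chd8 had a peak of fold 7.21 and Chd7 libraries 1 and 2 had peaks of 4.32 and 3.59, all covering that start. These peaks began 1305 bp from the boundary for Chd8, outside the window of 1 kb. All 3 inputs also had a peak over that start (3.53, 3.66 and 3.49), and the one of input 3 reached into the window.

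Of the 4 proteins that bind eIF4E, the translational repressor genes Eif4ebp1 and Eif4ebp2 and the nuclear import factor gene Eif4enif1 had Chd8 peaks, with folds of 3.81, 4.29 and 4.36. All were below the median of all genes with a Chd8 peak (4.85). The 3.81 of Eif4ebp1 was the lowest fold of any gene in the Chd8 list. The interval for these 3 of 4 genes, 19.4 to 99.4%, includes the 41.0% of all genes. Eif4ebp1 also had 3.09 in Chd7 library 2, and Eif4ebp3 had no Chd8 peak within 3669 bp. No gene of this group had a reproducible Chd7 region, an interval that reaches 60.2% and so includes the 4.83% of all genes.

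All 4 genes numbered as eIF5 had Chd8, but the interval, 39.8 to 100%, includes the 41.0% of all genes. A reproducible Chd7 region lay at 2 of the 4 (6.76 to 93.2%), against 4.83% of all genes. Eif5a, a hypusine-carrying factor that also acts in elongation, had 5.09 and 3.59 for Chd7 and 6.54 for Chd8, with an input 1 peak of 3.52 as its only input peak. Eif5b, the GTPase that joins the ribosomal subunits, had 4.28 and 3.17 for Chd7 and 6.35 for Chd8. Inputs 1 and 3 had 3.61 and 3.68 there. Eif5, the GTPase activator of eIF2, had Chd8 alone among the ChIPs (5.80), with peaks of 3.96, 3.23 and 3.83 in the inputs. Eif5a2 also had Chd8 alone among the ChIPs (3.81), at the lowest fold of any gene in the Chd8 list. Inputs 2 and 3 had peaks of 4.57 and 3.55 there. Eif6, which keeps the subunits apart, had 3.14 in Chd7 library 2 and 3.86 for Chd8. Both are close to the lowest folds of any gene in those lists (3.04 and 3.81).

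The genes numbered as eIF1 had Chd8 at 5 of 5 (interval 47.8 to 100%), against 41.0% of all genes. The eIF1 and eIF1A proteins set the accuracy of start codon choice. Eif1ad, whose nuclear product has an eIF1A-like domain, is grouped with them by its symbol. Eif1ad had the highest Chd8 fold of the Eif genes, 9.82, rank 74 of 8966, and 4.47 in Chd7 library 1. Inputs 2 and 3 had peaks of 3.84 and 3.87 at its ends, and its Chd8 peak was lost when input 3 peaks were removed. Eif1 had 4.15 and 3.76 for Chd7 and 6.02 for Chd8, and its input 3 peaks were the only input peaks. Eif1b had 3.33 in Chd7 library 2 and 5.18 for Chd8, and Eif1a and Eif1ax had Chd8 folds of 4.29 and 4.64 with no Chd7.

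**Figure D3:**
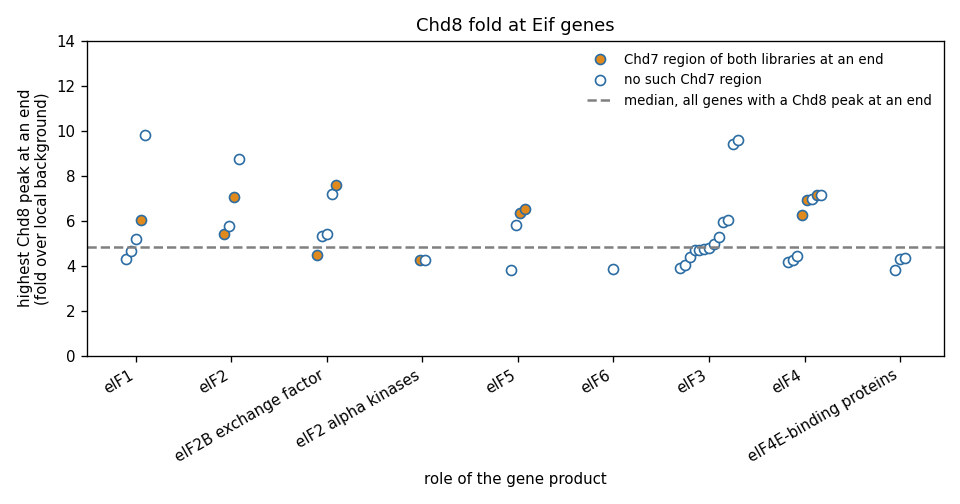
Fold of the highest Chd8 peak within 1 kb of an end (y axis, over the caller's local background) for the 45 Eif genes that have one, by role (x axis). Filled points have a reproducible Chd7 region at an end (11 genes), and the dashed line is the median of all genes with a Chd8 peak, 4.85.

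By median fold, the Chd7 and input 3 peaks of the Eif genes were near those of all genes, and the Chd8 peaks were somewhat higher. The median Chd8 fold was 5.29 over the 45 Eif genes, against 4.85 over the 8966 genes with a Chd8 peak, and the median width 577 bp, against 529 bp. In Chd7 libraries 1 and 2 the medians were 4.47 and 3.33 for Eif genes, against 4.55 and 3.38, and for reproducible regions 4.02, against 4.08. In input 3 the median was 3.58 for Eif genes, against 3.59. A fold of at least 5 was reached by Chd8 at 24 Eif genes (42.9%), against 17.8% of all genes, and by both Chd7 libraries at 0, against 0.0137%. A −log10 q of at least 5 was reached by Chd8 at 17 Eif genes (30.4%), against 8.28%, and by both Chd7 libraries at 0, against 0% of all genes. Among genes with a Chd8 peak, that fold was reached at 24 of 45 Eif genes, against 3896 of 8966 genes. That q was reached at 17 of the 45, against 1813 of the 8966. With the 5218 highest peaks of each list, Chd8 had 24 Eif genes (42.9%), against 18.0%.

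Chd7 was found where Chd8 was, at Eif genes as at genes in general. All 15 Eif genes with a peak of Chd7 library 1 had one of Chd8 (33.3% of the 45), against 96.0% of such genes in all, and 21 of the 22 of Chd7 library 2 did (95.5%, and 46.7% of the 45), against 90.3%. Peaks of Chd7 and Chd8 touched at 13 of the 15 and 21 of the 22 genes, against 2097 of 2281 and 3187 of 3717 among all genes. The Chd7 libraries shared 11 Eif genes, 73.3% of the 15 and 11 of the 22, against 52.3% and 32.1% for all genes. A peak of at least 1 Chd7 library lay at 26 of the 56 Eif genes, against 4805 of the 21887 protein-coding genes. Both libraries had one at 11 and 1193 of these, which left 15 Eif genes with a peak of 1 Chd7 library alone. When the replicate peaks had to overlap by 50% of each, the region of Eif2ak4 was the only one left (1.79%), against 1.72% of all genes, and the peaks of library 1 had a median width of 218 bp at Eif genes, those of library 2 one of 441.5 bp.

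The peaks sat at gene starts. Strand was known for 44 of the 56 genes, and the start was taken as the annotated gene boundary on that side, which lay within 100 bp of a listed start site at 41 of the 44. All 37 of these with a Chd8 peak had it at the start and not at the other end (100%, against 90.9% of all genes), and at 29 of the 37 a peak covered the start base (78.4%, against 66.9%). The median midpoint lay 36 bp downstream of the start, against 55 bp for all genes. Reproducible Chd7 regions were at the start of 10 of 10 genes and covered it at 8 (80.0%, against 75.4%). Input 3 peaks were at the start alone at 32 of 36 Eif genes (88.9%, against 72.8%) and covered it at 21 (58.3%, against 46.1%). The map of peak spans shows that Chd8 peaks reached to both sides of the start at most genes. The Chd8 peaks at Eif1ax, Eif3m, Eif4e, Eif4ebp2, Eif4h and Eif5a2 lay wholly downstream of it. At Eif4e a Chd8 peak covered another of the listed starts.

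**Figure D4:**
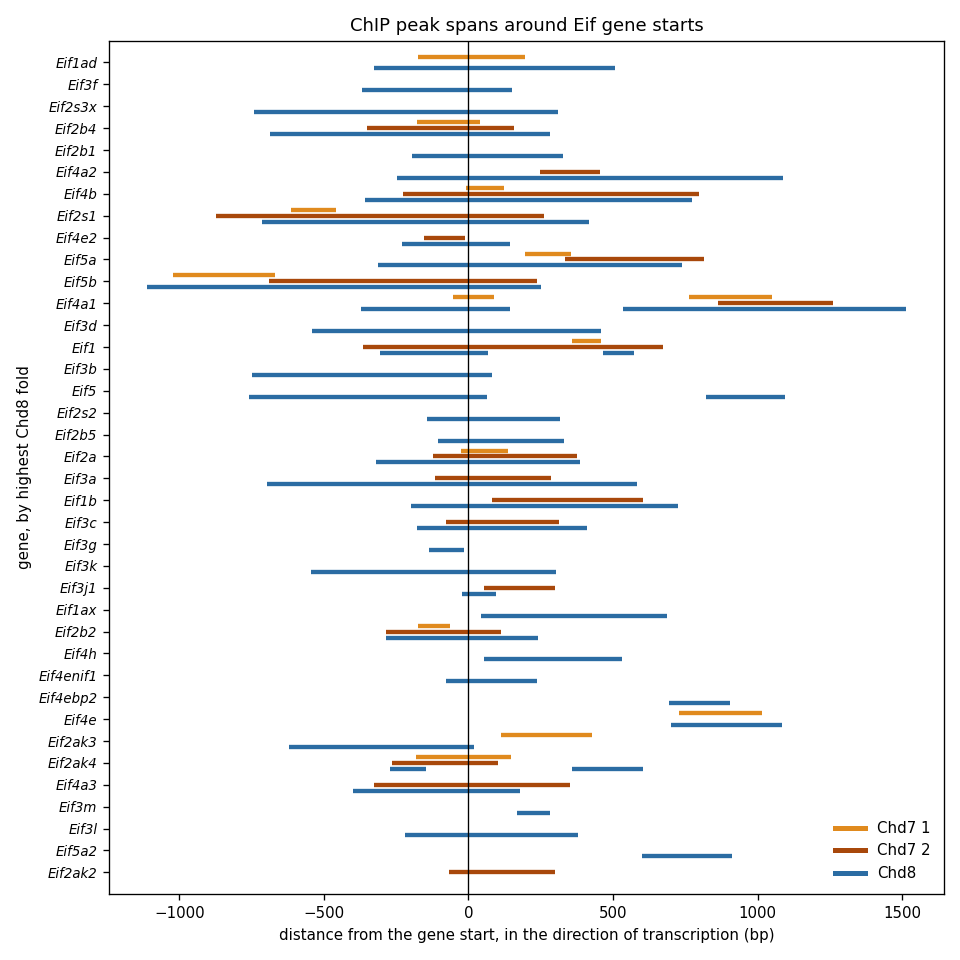
Span of each ChIP peak within 1 kb of an end (horizontal bars: Chd7 libraries 1 and 2 in orange and brown, Chd8 in blue) relative to the first base of its annotated Eif gene (x axis, bp in the direction of transcription), genes ordered by Chd8 fold. Of the 37 genes with a Chd8 peak shown, 29 have one that covers the start.

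Some of these starts are shared. The highest Chd8 peak also lay within 1 kb of another protein-coding gene at 11 of the 45 Eif genes (24.4%), against 29.7% of all genes with a Chd8 peak. These neighbours were Tmed7 at Eif1a, Banf1 at Eif1ad, Serp1 at Eif2a, Gtf2h3 at Eif2b1, Snx17 at Eif2b4 and Atp6v1d at Eif2s1. They were Tmem234 at Eif3i, Map4k1 at Eif3k, Senp3 at Eif4a1, Txndc9 at Eif5b and both Sfi1 and Gm51877 at Eif4enif1. A peak there cannot be assigned to one gene. No 2 Eif genes shared a peak.

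The promoters were searched in the RefSeq table, which holds 44 of the 56 genes and 17492 in all, 300 bases each (250 before and 50 from the start on), on both strands. The ETS word CCGGAAG occurred in 14 of 44 Eif promoters (31.8%), against 11.9% of all promoters and 21.0% of promoters of all genes with Chd8. The E-box CACGTG occurred in 8 (18.2%), against 7.91%, the ZNF143 core ACTACAA in 5 (11.4%), against 3.82%, and the NRF1 word GCGCATGCG in 3 (6.82%), against 2.41%. The CCAAT word occurred in 14 (31.8%), against 39.2%, the SP1 word GGGGCGGGG in 5 (11.4%), against 15.5%, and TATAAA in 4 (9.09%), against 13.3%. The YY1 word AAGATGGCG was found in 1, Eif2s3y (2.27%), against 1.92%, and the ZBTB33 word TCTCGCGAG and the CRE TGACGTCA in 0, against 1.03% and 2.33%. Among promoters of all genes with Chd8 the shares were 10.4% for the E-box, 5.06% for ZNF143 and 4.66% for NRF1. For CCAAT, SP1, TATAAA and YY1 they were 41.9%, 21.2%, 6.42% and 3.89%, and for ZBTB33 and CRE 1.80% and 3.95%. Of the 37 Eif promoters with Chd8, 8.11% held TATAAA and 0 held the YY1 word. Words were counted independently of each other. None is evidence of binding.

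Base composition differed from all genes in the same direction as it did for genes with Chd8. The ratio of observed to expected CpG had a median of 0.857 in Eif promoters, against 0.577 in all promoters, and their median GC content was 61.0%, against 56.3%. Promoters of all genes with a Chd8 peak had a median CpG ratio of 0.794, those without one 0.289. Within the Eif genes the medians were 0.872 for the 37 with Chd8 and 0.801 for the 7 without. Its part in the Chd8 counts was not tested.

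Other genes of the translation machinery were set beside the Eif genes. Chd8 had a peak at 13 of 13 elongation and termination genes, 17 of 22 genes of initiation helpers and control (77.3%), 76 of 85 cytosolic ribosomal protein genes (89.4%), 69 of 78 mitochondrial ribosomal protein genes (88.5%) and 1 of 2 mitochondrial initiation factor genes, against 45 of 56 Eif genes (80.4%). The 40 proteasome genes, which are not part of translation, had a like count of 33 (82.5%). Reproducible Chd7 regions lay at 11 of 56 Eif genes (19.6%), 5 of 13 elongation and termination genes (38.5%) and 4 of 22 helpers (18.2%). They lay at 5 of 85 cytosolic (5.88%) and 8 of 78 mitochondrial (10.3%) ribosomal protein genes and 3 of 40 proteasome genes (7.50%), against 4.83% of all genes. Differences between lists were not tested.

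Without input 3 peaks the Chd8 share was 19.6% for Eif genes, 23.1% for elongation and termination, 45.5% for helpers, 32.9% and 21.8% for cytosolic and mitochondrial ribosomal proteins and 8 of 40 for the proteasome. The other translation genes with a reproducible Chd7 region were Mknk2, an eIF4E kinase (mean fold 4.78), the release factor genes Gspt1 and Etf1 (4.47 and 3.78), Dhx29, a helicase of the scanning ribosome (4.32), and Rptor, the mTORC1 scaffold (4.19). They further included Eef1g and Eef1b2 of the elongation factor 1 complex (4.15 and 3.93), Pabpc1, the poly(A)-binding protein (4.07), and Abce1, a ribosome recycling factor (3.83). All 9 also had Chd8, from 5.13 at Pabpc1 to 11.9 at Eef1b2, and an input 3 peak, from 3.29 at Pabpc1 to 4.54 at Eef1b2. The Chd7 regions of Eef1b2, Eef1g, Gspt1, Abce1 and Dhx29 also lay within 1 kb of another gene.

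**Figure D5:**
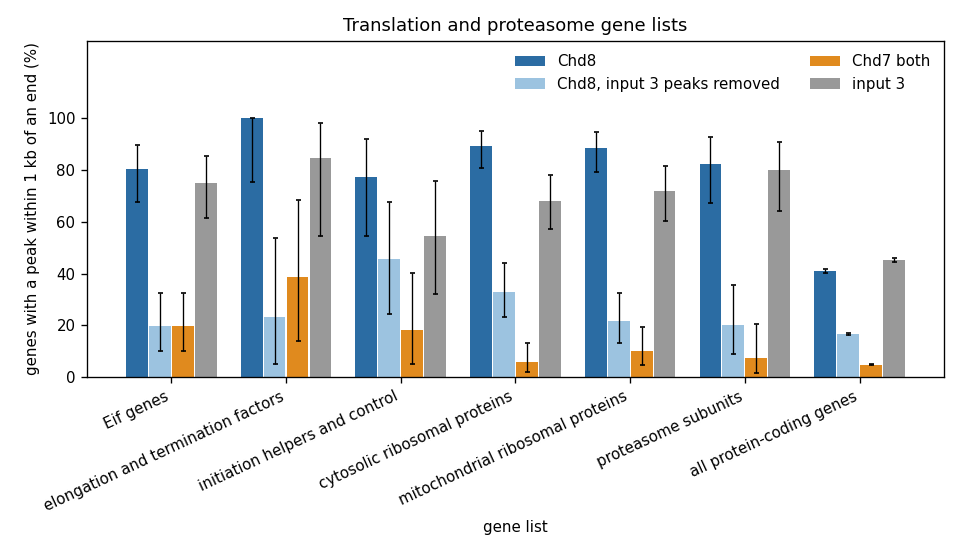
Share of genes (y axis, %) with a peak within 1 kb of an end in each list (x axis), for Chd8, Chd8 after removal of peaks touching input 3, reproducible Chd7 regions (Chd7 both) and input 3, with 95% Clopper-Pearson intervals. The Chd8 bars lie between 77.3% and 100% in the lists drawn, which leave out the 2 mitochondrial initiation factor genes, against 41.0% for all genes, and with input 3 peaks removed the Eif bar is at 19.6%, against 16.7% for all genes.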

How the data were processed

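The deposited files are 1 broad peak list per library on mm10. MACS, Bowtie2, Picard and SAMtools are named in the submitters' processing notes; their versions, settings and the controls used in calling were not given in the sources used here. Each peak has a score in column 5, given by the authors' caller, which lay within 1 unit of 10 times the −log10 q. Column 7 is a ratio from the authors, the fold of a peak over local background. The deposited −log10 p and −log10 q stand in columns 8 and 9. Fold depends on the library and its control, so it was ranked and described within a list, apart from the mean of both Chd7 folds.

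ChIP peaks overlapping any mock peak (by 1 bp or more) were dropped, leaving 5218 and 6237 Chd7 peaks and 18350 Chd8 peaks. A gene had a peak when 1 bp of it lay within 1 kb of either boundary in the RefSeq table of GRCm38.p6. Reproducible Chd7 regions were merged overlapping peaks of both libraries, with the mean of the highest folds. Promoter sequences are RefSeq's, of the same build. Where a gene had several listed starts, the promoter of the outermost was used; positions were measured from the gene boundary on the start side. Intervals are 95% Clopper-Pearson intervals that reflect the number of genes alone, not replicate error. No test was run, since the files hold no per-sample counts and Chd8 has 1 library. Python 3.11.15, NumPy 2.4.6, SciPy 1.17.1 and matplotlib 3.10.9 were used, and the overlap steps were checked on made-up peaks with known answers.

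The Eif genes as a subject and the lists were chosen with earlier results of these data known, although membership follows from the symbol. Named were the 10 genes with the highest Chd8 fold, those with a reproducible Chd7 region or a peak of 1 Chd7 library, those without Chd8, and up to 10 other translation genes with a reproducible Chd7 region. Other Eif genes are named to account for each member. Alternatives were a −log10 q or fold of at least 5, equal numbers of peaks, mock-touching peaks kept, matching, exchanged or any input peaks removed, windows of 250 bp and 5 kb, starts only, midpoints, no sex chromosomes, factor subunits only, a 50% reciprocal overlap, a peak of each Chd7 library without overlap, and each Chd7 library alone.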

Additional observations from a re-analysis of the deposited data

How the results depend on the processing

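The number of Eif genes with Chd8 (45) stayed within 1.5 times under 8 of 13 alternatives, and their share was above that of all genes in 12 of the 13, the exception being removal of any-input peaks. For reproducible Chd7 regions (11 genes) these counts were 10 and 15 of 17, for Chd7 library 1 (15 genes) 8 and 12 of 13, and for Chd7 library 2 (22 genes) 8 and 11 of 13. Counts moved further under the following settings. At a −log10 q of at least 5, Chd8 had 17 genes and the Chd7 regions and both Chd7 libraries 0. At a fold of at least 5, Chd8 had 24, the Chd7 regions 0, Chd7 library 1 had 4 and library 2 had 0, and with equal numbers of peaks Chd8 had 24. With matching-input peaks removed, Chd8 had 11, the Chd7 regions 3, and Chd7 libraries 1 and 2 had 7 and 11. With any-input peaks removed these were 7, 1, 4 and 3, and with inputs 2 and 3 exchanged the Chd7 regions were at 1 gene and the libraries at 7 and 5. A reciprocal overlap of 50% left 1 gene with a Chd7 region. Of the eIF3 genes (13 with Chd8), 5 were left with equal numbers of peaks. Chd7 library 1 or 2 alone in place of the regions gave 15 to 22 genes, of which the 22 lies beyond 1.5 times. The cause of these moves was not tested, beyond that stricter settings leave fewer peaks. No paired analysis was possible because the results are counts of peaks and come from no test. Depth is unknown, so an absent peak is a missing call and not an absence of binding.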

Other observations

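Of 11 Eif-named pseudogenes in the annotation, 1 had a Chd8 peak within 1 kb of an end: Eif2s3x-ps1, with a fold of 5.76, a Chd7 library 2 peak of 3.06 and no input peak. Inputs 1, 2 and 3 had a peak at 3, 4 and 1 of the 11. The lncRNA locus Eif2c5 had none in any library. Such copies resemble their parent genes in sequence, so reads may be shared.

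Inside the gene bodies, away from the ends, ChIP peaks were few, and most peaks there were input peaks. Chd8 had further peaks in Eif4e (fold 4.15), Eif5a (4.42), Eif4e3 (3.81 and 5.02) and Eif4g3 (7.21 and 4.11). Chd7 library 2 had one each in Eif2b1 (3.35) and Eif2d (3.14). The peaks in Eif2b1 and Eif5a touched a peak of input 3, and input peaks also lay at the 7.21 site of Eif4g3. In Eif4g3 a second site lay 45209 bp from the nearer boundary for Chd8, where Chd7 library 1 also had a peak (4.55).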
